A study of Mus musculus with 8 samples.

Results

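The secretory-cell genes described here are Bhlha15, Creb3l2, Serpinh1, Mzb1, Manf and Mydgf, 6 of the 16538 genes measured in sorted DN3 thymocytes. They were chosen because they are typical of professional secretory cells and were known, from the same genotype comparison of the same libraries, to be higher after deletion of Sel1l. Their difference between the genotypes is therefore given as a description and was not tested. All 6 had values in every library, and 5 of the 6 reached the mean of 1 RPKM (the read count of a gene per kilobase of its length, relative to library size) that was required of tested genes, while Creb3l2 did not. Bhlha15 and Serpinh1 reached it only through the Sel1l CKO libraries, where they were high.

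DN3 thymocytes are immature T cells at the third CD4- CD8- stage (CD44- CD25+), where the T cell receptor beta chain is first tested. RNA was sequenced from 4 control libraries and 4 Sel1l CKO libraries, all from C57BL/6 mice aged 6 weeks and all with floxed Sel1l on both alleles (Sel1l-f/f). The Sel1l CKO mice also carried the hCD2cre transgene, whose recombinase acts from the early thymic progenitor onwards, so that stages before and after DN3 were affected too. The control mice carried no Cre, and effects of the recombinase cannot be told apart from those of the deletion.

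SEL1L is the adaptor of the ubiquitin ligase HRD1 and takes part in ER-associated degradation, which removes misfolded proteins from the endoplasmic reticulum (ER). Cells that secrete much protein, such as plasma cells, pancreatic acinar cells and fibroblasts, keep a large ER and a set of transcription factors, chaperones and ER-resident factors suited to that load, and several of these genes are also induced by the unfolded protein response (UPR). Developing T cells are not secretory cells of this kind.

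The sequence just before the start of transcription is shown for Bhlha15, Creb3l2, Mydgf and Serpinh1, because ER stress elements in such windows are a known route by which the UPR reaches secretory genes. The 250 bases before each start are from RefSeq (GRCm38.p6), 5′ to 3′ on the strand of the gene, and capitals mark CCACG or its reverse complement CGTGG, the part of the ER stress element read by ATF6 and XBP1. The windows are chr5:144190036-144190285 (plus strand) for Bhlha15, chr6:37442149-37442398 (minus strand) for Creb3l2, chr17:56183921-56184170 (minus strand) for Mydgf and chr7:99353240-99353489 (minus strand) for Serpinh1. Manf had no entry, and the promoter of Mzb1 was not searched.
Bhlha15: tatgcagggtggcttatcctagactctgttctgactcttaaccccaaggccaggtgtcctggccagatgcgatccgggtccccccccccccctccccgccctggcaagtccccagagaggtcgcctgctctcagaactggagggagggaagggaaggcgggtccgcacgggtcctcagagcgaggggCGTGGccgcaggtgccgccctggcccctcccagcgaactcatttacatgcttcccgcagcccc
Creb3l2: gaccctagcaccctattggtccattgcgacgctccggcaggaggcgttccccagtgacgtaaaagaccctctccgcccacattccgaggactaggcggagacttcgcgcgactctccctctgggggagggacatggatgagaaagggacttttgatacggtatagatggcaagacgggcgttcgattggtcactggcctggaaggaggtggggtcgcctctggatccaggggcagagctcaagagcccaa
Mydgf: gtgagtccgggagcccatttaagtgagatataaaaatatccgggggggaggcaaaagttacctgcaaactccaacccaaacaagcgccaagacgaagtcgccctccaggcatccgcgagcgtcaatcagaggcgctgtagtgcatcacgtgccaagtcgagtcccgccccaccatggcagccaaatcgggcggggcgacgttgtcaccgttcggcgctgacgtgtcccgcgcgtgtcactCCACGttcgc
Serpinh1: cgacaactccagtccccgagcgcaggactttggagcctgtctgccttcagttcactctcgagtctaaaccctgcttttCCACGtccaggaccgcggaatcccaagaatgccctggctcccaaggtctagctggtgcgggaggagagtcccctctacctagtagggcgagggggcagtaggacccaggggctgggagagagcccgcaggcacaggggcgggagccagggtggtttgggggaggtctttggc

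Motif letters were searched on both strands over 300 bases, with 50 bases after the start included. CCACG was present in 3 of the 4 windows and in 32.8% of 32851 promoters. Bhlha15 had it on the reverse strand with first bases at -63, 4 and 36 relative to the start, Mydgf at -10, and Serpinh1 at -172 and 20. In the Creb3l2 window these letters were not found. The longer elements that contain CCACG were in none of the 4 windows, namely the ER stress element, in which CCAAT is followed after 9 bases by CCACG (0.119% of promoters), its second form, in which ATTGG is followed after 1 base by CCACG (0.0365%), and TGACGTGG, whose reverse complement holds CCACG (0.676%). TGACGTCA (1.79%), ATTGCATCA (0.192%), CAGCTG (16.3%) and CATATG (3.91%) were also not found there. These are matches of letters only.

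The libraries held 32900253 to 50401359 reads counted on genes. Sel1l itself measured 1.83, 1.66, 1.61 and 1.57 RPKM in the control libraries, from replicate 1 to 4, and 0.917, 0.876, 1.32 and 1.23 RPKM in the Sel1l CKO libraries in the same order, or 65.1% of the control mean, with a log2 difference of -0.59 (SE 0.13, limma adjusted p = 0.0327; two-sided p = 0.0286 by exact permutation, the lowest that 4 against 4 allows). The values count reads over the whole gene, so that transcripts lacking only the deleted part would still count. The part of such transcripts in the remaining Sel1l level was not tested. When each library was left out in turn the limma adjusted p of Sel1l ran from 0.0199 to 0.0981 and stayed under 0.05 only without Sel1l CKO replicate 3 or replicate 4. In replicates 1 and 2 alone its log2 difference was -0.89, against -0.30 in replicates 3 and 4 alone, and the values of the 6 genes are therefore also given within these sets. The DN3 markers Il2ra (CD25), at 17.5 ± 0.690 and 19.6 ± 2.54 RPKM in control and Sel1l CKO (SD, n = 4 each), and Ptcra (pre-TCR alpha), at 27.3 ± 2.17 and 21.1 ± 4.27 RPKM, were present in both genotypes. Of the 15 listed DN3 markers, 0 were called by limma or by limma voom in either direction, and at an unadjusted p under 0.05 there were 7 lower and 0 higher with either tool. Among all 6512 tested genes, 1356 passed that unadjusted threshold by limma, in either direction.

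Of the 6 secretory-cell genes, 5 had every Sel1l CKO library above every control library, the exception being Mzb1. Among all 15856 genes with a value, 5.32% showed this pattern, and among the 6512 tested genes 9.15% did. The genes were chosen on this contrast, so nothing is read from the count.

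**Figure D1:**
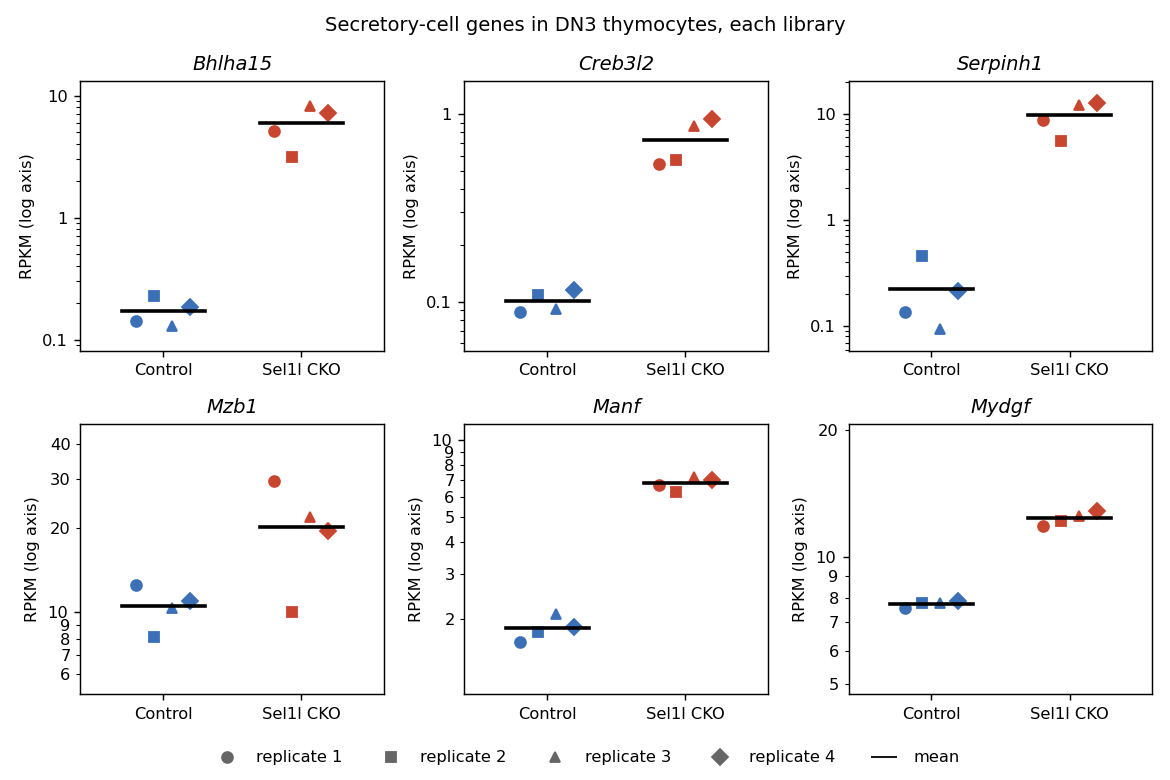
RPKM on a log axis for the 6 genes in each of the 4 control (blue) and 4 Sel1l CKO (red) libraries, with the symbol giving the replicate number and the line the group mean. Sel1l CKO replicate 2 of Mzb1, at 9.96 RPKM, lies among the control libraries, whereas the groups are apart for the other 5 genes.

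Bhlha15 encodes MIST1, a basic helix-loop-helix transcription factor that builds the secretory architecture of acinar, gastric chief and plasma cells. The gene (ENSMUSG00000052271.7, chr5:144190286-144194441 of GRCm38, plus strand) measured 0.142, 0.227, 0.130 and 0.185 RPKM in the control libraries, from replicate 1 to 4, and 5.10, 3.12, 8.21 and 7.22 RPKM in the Sel1l CKO libraries in the same order. The lowest Sel1l CKO library was 13.8 times the highest control library, and within Sel1l CKO replicates 3 and 4 were the high libraries and replicate 2 the low library. The means were 0.171 ± 0.0440 and 5.91 ± 2.27 RPKM (SD, n = 4 each), a ratio of 34.6. On log2(RPKM + 0.1) the difference was 4.40 (SE 0.33). The control values rest on 19 to 45 reads per library and the Sel1l CKO values on 653 to 1123. The fold change was 22.3 in replicates 1 and 2 alone and 49.0 in replicates 3 and 4 alone.

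Creb3l2 encodes a transcription factor that is held in the ER membrane and released by the Golgi proteases S1P and S2P, after which it activates genes of ER-to-Golgi transport, for example in cartilage cells. The gene (ENSMUSG00000038648.5, chr6:37327255-37442146, minus strand) measured 0.0876, 0.108, 0.0908 and 0.115 RPKM in the control libraries, from replicate 1 to 4, and 0.541, 0.567, 0.861 and 0.937 RPKM in the Sel1l CKO libraries in the same order. The groups did not overlap, and Sel1l CKO replicates 3 and 4 stood above replicates 1 and 2. The means were 0.10 ± 0.0133 and 0.727 ± 0.202 RPKM (SD, n = 4 each), a ratio of 7.24, which was 5.66 in replicates 1 and 2 alone and 8.75 in replicates 3 and 4 alone. The low RPKM did not reflect few reads, since there were 367 to 595 reads per control library and 2356 to 3543 per Sel1l CKO library. The deposited RPKM divides by the whole gene of 114892 bases with its introns, which is 15.8 times the 7283 bases of exon. On log2(RPKM + 0.1) the difference was 2.01 (SE 0.18), a scale that understates the change of a gene at this level, and with RPKM on exon length it was 2.75 (SE 0.22).

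Serpinh1 encodes HSP47, an ER chaperone dedicated to procollagen and abundant in fibroblasts. The gene (ENSMUSG00000070436.12, chr7:99345376-99353239, minus strand) measured 0.135, 0.461, 0.0940 and 0.216 RPKM in the control libraries, from replicate 1 to 4, and 8.82, 5.50, 12.2 and 12.7 RPKM in the Sel1l CKO libraries in the same order. The groups were separated by a factor of 11.9 between the lowest Sel1l CKO and the highest control library. Control replicate 2 was the high control library, and the controls spread 4.90-fold between their extremes on 26 to 173 reads each, against 2179 to 3288 reads in Sel1l CKO. The means were 0.226 ± 0.164 and 9.81 ± 3.35 RPKM (SD, n = 4 each), a ratio of 43.3. On log2(RPKM + 0.1) the difference was 4.97 (SE 0.43). This ratio was the highest of the 6 genes and also the one that differed most between the sets of replicates, at 24.1 within replicates 1 and 2 and 80.3 within replicates 3 and 4. The high control replicate 2 falls in the first of these sets, so the controls also contribute to that gap. With all controls kept and only Sel1l CKO replicates 3 and 4 left out, the log2 difference was 4.56.

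Mzb1 encodes an ER protein of B cells, plasma cells and plasmacytoid dendritic cells that aids the assembly of immunoglobulin. The gene (ENSMUSG00000024353.5, chromosome 18) measured 12.5, 8.13, 10.3 and 10.9 RPKM in the control libraries, from replicate 1 to 4, and 29.4, 9.96, 21.8 and 19.5 RPKM in the Sel1l CKO libraries in the same order. Sel1l CKO replicate 2 lay inside the control range, and the other Sel1l CKO libraries lay above every control library. The means were 10.5 ± 1.80 and 20.1 ± 8.0 RPKM (SD, n = 4 each), a ratio of 1.93 with 761 to 1066 reads per control library and 1055 to 2337 per Sel1l CKO library. The log2 difference of 0.85 (SE 0.35) was the least precise of the 6 relative to its size, and the ratio was 1.91 in replicates 1 and 2 alone and 1.94 in replicates 3 and 4 alone. On the same strand the annotation has SPATA24 overlapping Mzb1, which was not analysed here.

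Manf encodes an ER-resident factor that binds the chaperone BiP and is secreted under ER stress, when it protects neurons and other cells. The gene (ENSMUSG00000032575.16, chr9:106838312-106891979, minus strand) measured 1.64, 1.78, 2.09 and 1.86 RPKM in the control libraries, from replicate 1 to 4, and 6.69, 6.27, 7.22 and 6.99 RPKM in the Sel1l CKO libraries in the same order. No library of either genotype came near the other group, with the lowest Sel1l CKO library at 2.99 times the highest control library. The means were 1.84 ± 0.192 and 6.79 ± 0.410 RPKM (SD, n = 4 each), a ratio of 3.69, and the log2 difference was 1.83 (SE 0.08). The ratio was 3.79 in replicates 1 and 2 alone and 3.59 in replicates 3 and 4 alone. The annotated Manf gene of 53668 bases spans Rbm15b on the same strand, with means of 26.1 and 32.6 RPKM in control and Sel1l CKO, and Dcaf1 on the opposite strand, with means of 1.80 and 1.79 RPKM. How the counting treated reads that such neighbours share is not given in the sources used here. The part of such reads in the Manf values was not tested.

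Mydgf encodes myeloid-derived growth factor, a protein of the ER and Golgi that monocytes also secrete. The gene (ENSMUSG00000019579.13, chr17:56175744-56183920, minus strand) measured 7.58, 7.78, 7.76 and 7.85 RPKM in the control libraries, from replicate 1 to 4, and 11.8, 12.2, 12.5 and 12.9 RPKM in the Sel1l CKO libraries in the same order. The shift was small and uniform, and the groups did not overlap. The means were 7.74 ± 0.112 and 12.3 ± 0.448 RPKM (SD, n = 4 each), a ratio of 1.59, with 2232 to 3038 reads per control library and 3360 to 5014 per Sel1l CKO library. The log2 difference was 0.66 (SE 0.03), and the ratio was 1.56 in replicates 1 and 2 alone and 1.62 in replicates 3 and 4 alone.

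The size of the difference of the low genes depended on the scale, whereas Mydgf and Mzb1 moved little. For Bhlha15 the log2 difference ran from 2.5 with a pseudocount of 1 to 4.97 with a pseudocount of 0.01, and limma voom on reads recovered from the RPKM steps gave 4.94 (SE 0.72). For Serpinh1 it ran from 3.09 to 5.54, with 5.52 (SE 0.69) from the recovered reads. Creb3l2 showed the widest relative range, from 0.64 to 2.71, with 2.80 (SE 0.24) from the recovered reads. For Mydgf the values lay between 0.61 and 0.67 on these scales, and for Mzb1 between 0.81 and 0.86. The direction was the same for all 6 genes on every scale, but they were chosen on this contrast, so nothing is read from that.

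**Figure D2:**
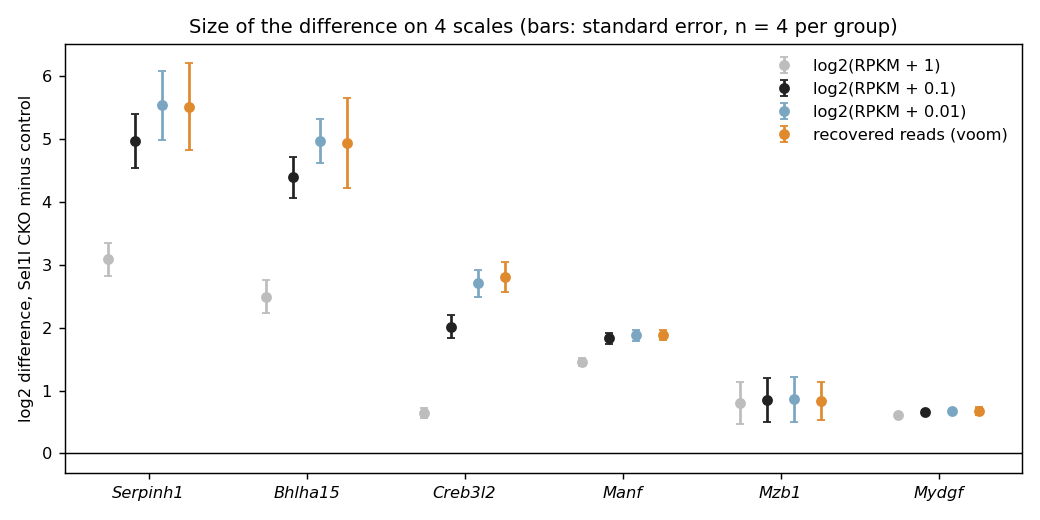
Log2 difference between Sel1l CKO and control for each gene on 4 scales, with bars giving the standard error over 4 libraries per group. Relative to its size, the difference of Creb3l2 depends most on the pseudocount, at 0.64 with a pseudocount of 1 and 2.71 with 0.01. The values from recovered reads lie close to those with the smallest pseudocount.

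Levels between genes can be compared only per length, and the choice of length changed their order. On the deposited RPKM, with introns in the length, the control order was Mzb1, Mydgf, Manf, Serpinh1, Bhlha15 and Creb3l2, and only the ranges of Serpinh1 and Bhlha15 overlapped between neighbours. On exon length the controls were led by Mydgf at 28.5 ± 0.412 RPKM and Manf at 28.1 ± 2.92 RPKM, whose ranges overlapped, followed by Mzb1 at 18.1 ± 3.12 RPKM (SD, n = 4 each). Creb3l2 at 1.58 ± 0.210 RPKM and Serpinh1 at 0.728 ± 0.529 RPKM overlapped, and Bhlha15 was lowest at 0.203 ± 0.0524 RPKM. The control thymocytes thus held both well expressed and barely detected genes of the group.

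In Sel1l CKO, Manf was the highest on exon length at 103 ± 6.24 RPKM and stood apart from the rest. The range of Mzb1, at 34.9 ± 13.8 RPKM, overlapped those of Mydgf at 45.4 ± 1.65 RPKM and Serpinh1 at 31.5 ± 10.8 RPKM, which did not overlap each other. The ranges also overlapped for Creb3l2 at 11.5 ± 3.18 RPKM and Bhlha15 at 7.03 ± 2.7 RPKM (SD, n = 4 each).

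**Figure D3:**
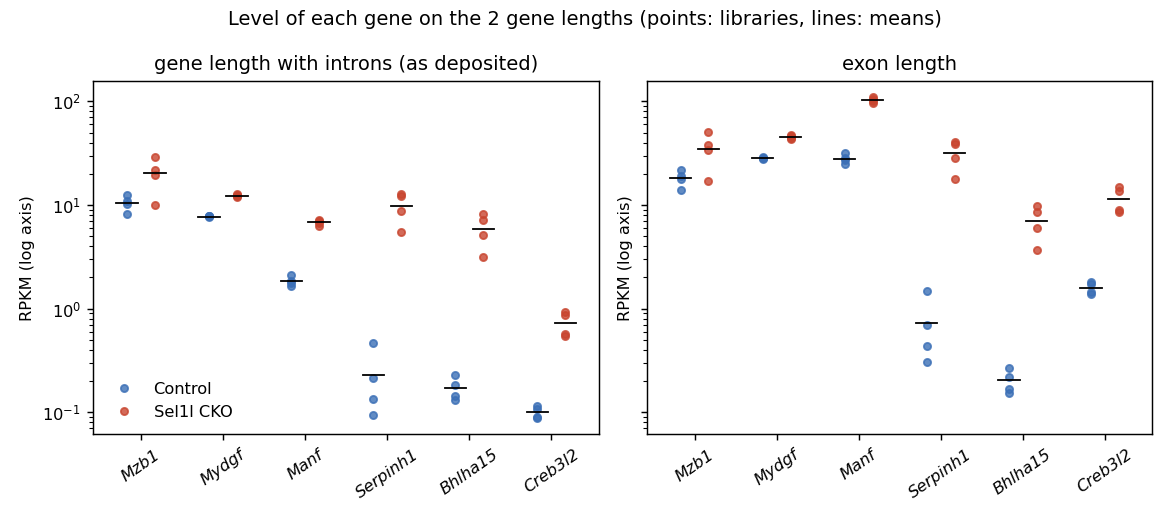
RPKM on a log axis for each gene in the 4 control (blue) and 4 Sel1l CKO (red) libraries, on the deposited gene length with introns (left) and on exon length (right), with lines at the group means. On exon length Manf has a mean of 28.1 RPKM among the controls and 103 RPKM in Sel1l CKO, where it leads the order, and Creb3l2 no longer stands lowest.

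The Sel1l CKO libraries were not alike for these genes. Replicate 2 was the lowest Sel1l CKO library for Bhlha15, Serpinh1, Mzb1 and Manf, and replicate 1 was the lowest for Creb3l2 and Mydgf. Replicate 3 or replicate 4 was the highest for every gene except Mzb1, where it was replicate 1. For Bhlha15 the 4 Sel1l CKO libraries deviated from their mean by -0.12, -0.81, 0.56 and 0.37 on log2(RPKM + 0.1), and for Mzb1 by 0.64, -0.91, 0.21 and 0.05. Mydgf deviated by at most 0.06 in either direction. The reads counted on genes in Sel1l CKO replicates 1 to 4 were 37870183, 50401359, 32909477 and 32900253, so that the deepest library, replicate 2, was the lowest for Bhlha15 and the shallowest, replicates 3 and 4, were the highest. The part of depth in this spread was not tested.

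**Figure D4:**
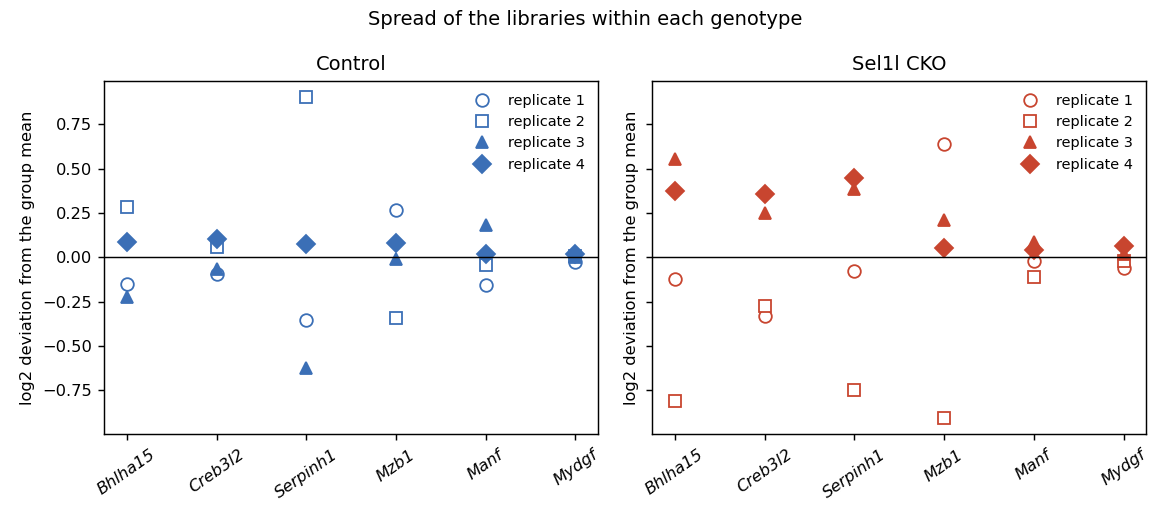
Deviation of each library from the mean of its genotype on log2(RPKM + 0.1), with control on the left, Sel1l CKO on the right and open symbols for replicates 1 and 2. Among the Sel1l CKO libraries replicate 2 is low for Bhlha15, Serpinh1 and Mzb1, and in control replicate 2 is high for Serpinh1.

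The tested genes whose profile over the 8 libraries was closest to that of each secretory-cell gene were found by the root-mean-square distance of centred log2(RPKM + 0.1), which the genotype difference dominates. Bhlha15 and Serpinh1 were each other's nearest gene at 0.40, and both were followed by Chac1, a glutathione-degrading enzyme induced in ER stress, and by Derl3, a derlin of ER-associated degradation. Chac1 had 0.0137 ± 0.0273 RPKM among controls and 2.7 ± 0.605 RPKM among Sel1l CKO libraries, and Derl3 was at 0.0919 ± 0.0831 and 7.84 ± 3.18 RPKM (SD, n = 4 each). Bhlha15, Serpinh1, Chac1 and Derl3 all reached the filter only through the Sel1l CKO libraries, where they were high. Creb3l2 lay nearest to the ER chaperone Hyou1 at 0.12, then to Isg20 and Creld2, both at 0.19.

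Manf lay nearest to the disulfide isomerase Pdia6 at 0.099, then to Carhsp1 and to Hspa5, which encodes BiP, both at 0.14. Pdia6 was at 11.8 ± 0.369 and 40.5 ± 3.77 RPKM, and Hspa5 at 107 ± 20.9 and 376 ± 49.5 RPKM (SD, n = 4 each). Mydgf lay nearest to 3 genes of cargo transport between ER and Golgi, Tmed10 at 0.033, Lman2 at 0.049 and Tmed2 at 0.055, with log2 differences of 0.68, 0.64 and 0.70. Mzb1 had no near neighbour by comparison, with Abhd4 at 0.33, Fkbpl at 0.34 and Zfp324 at 0.38. Abhd4 was at 0.820 ± 0.0861 and 1.19 ± 0.345 RPKM in control and Sel1l CKO (SD, n = 4 each). It thus also reached the filter only through the Sel1l CKO libraries.

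Other genes of the pathways around these 6 were then counted in the comparison of all 6512 tested genes, of which limma called 5.28% in all, 4.27% higher and 1.01% lower in Sel1l CKO at an adjusted p under 0.05, with a median log2 difference of 0.01. At an unadjusted p under 0.05 limma gave 1356 of them, in either direction, as the background for the unadjusted counts below. The lists hold none of the 6 genes and were drawn up with earlier results of these data known.

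Of the factors that, like Manf and Mydgf, are ER-stress inducible and enter the secretory pathway, 2 of 4 tested rose and 0 fell (median log2 difference 1.36). Sdf2l1, an ER protein that keeps BiP substrates soluble, rose from 20.6 ± 0.932 to 118 ± 10.1 RPKM, and Creld2 rose from 6.01 ± 0.414 to 24.8 ± 2.49 RPKM (SD, n = 4 each). Nucb2, below the filter and singled out after its values were seen, was at 0.0287 ± 0.00686 and 0.456 ± 0.220 RPKM, with a log2 difference of 3.60 on exon length (SE 0.32, limma adjusted p = 0.000106). On that scale limma called 3.62% of all tested genes higher and 1.31% lower.

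Serpinh1 acts on collagen. Of 27 genes of collagen maturation, 7 were tested, 2 rose and 0 fell (median log2 difference 0.21). P4hb, the disulfide isomerase that is also a subunit of prolyl 4-hydroxylase, rose from 33.2 ± 1.74 to 66.7 ± 6.05 RPKM, and Ppib, the ER cyclophilin that also acts on collagen, rose from 26.3 ± 0.314 to 48.3 ± 4.85 RPKM (SD, n = 4 each). Both also serve proteins other than collagen. Of the 10 collagen genes 0 reached the filter, and together they summed to 0.0458 to 0.111 RPKM per control library and 0.0209 to 0.0481 RPKM per Sel1l CKO library. P4ha1, the catalytic subunit of prolyl 4-hydroxylase, below the filter and likewise singled out, was at 0.962 ± 0.282 and 0.548 ± 0.0672 RPKM, with a log2 difference of -0.77 on exon length (SE 0.17, limma adjusted p = 0.0334).

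For Creb3l2, the relatives of the CREB3 family and the proteases that release them gave 0 calls among 2 tested genes by limma (1 higher and 1 lower at an unadjusted p under 0.05) and 0 higher and 1 lower by limma voom among 3. Of all genes tested by voom, 2.91% were called higher and 1.39% lower. Of the COPII coat, the vesicle coat of ER exit that CREB3-type factors are known to regulate, 6 of 10 tested genes rose and 0 fell (median log2 difference 0.39). They included Sec23b, from 2.51 ± 0.0288 to 4.37 ± 0.430 RPKM, Sec31a, from 3.75 ± 0.104 to 5.73 ± 0.581 RPKM, and Tfg, from 2.68 ± 0.0579 to 3.87 ± 0.195 RPKM (SD, n = 4 each). The call of Sar1a was kept only without control replicate 3, its limma adjusted p being 0.0533 to 0.119 when any other library was left out. On exon length 8 of 14 were called higher, with the background of 3.62% on that scale. They then included Sec24d, singled out after its values were seen, at 0.225 ± 0.0443 and 1.45 ± 0.415 RPKM (SD, n = 4 each), a ratio of 6.43.

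For Bhlha15 and Mzb1, the plasma cell program gave 6 of 8 tested genes higher and 0 lower (median log2 difference 0.76). Derl3 had a log2 difference of 5.38 (SE 0.37, limma adjusted p = 3.42e-05), and Fkbp11, an ER prolyl isomerase, rose from 0.380 ± 0.159 to 3.55 ± 1.31 RPKM. Txndc5, an ER disulfide isomerase, rose from 2.65 ± 0.101 to 7.28 ± 0.589 RPKM, and Ssr4, a subunit of the translocon-associated complex, from 20.5 ± 1.62 to 36.0 ± 5.01 RPKM (SD, n = 4 each). The call of Sec11c was lost without control replicate 1, 2 or 4 or Sel1l CKO replicate 4 (limma adjusted p 0.0505 to 0.0719), and that of Xbp1 without control replicate 1 (limma adjusted p 0.0514). Derl3 and Fkbp11 reached the filter only through the Sel1l CKO libraries, where they were high. Pou2af1, a coactivator of B and plasma cells that was below the filter and was singled out after its values were seen, was at 0.156 ± 0.0378 RPKM in the controls and 0.312 ± 0.0714 RPKM with the deletion (SD, n = 4 each), with a log2 difference of 0.95 on exon length (SE 0.19, limma adjusted p = 0.0195). The defining regulators Prdm1 and Irf4, the surface marker Sdc1 and the immunoglobulin joining chain Jchain were all below the filter, with 0 to 8 reads per control library and 2 to 6 per Sel1l CKO library for Prdm1, 40 to 170 and 49 to 154 for Irf4, 29 to 56 and 2 to 49 for Sdc1, and 4 to 40 and 2 to 24 for Jchain.

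MIST1 binds E boxes and drives regulated exocytosis in acinar cells, and these lists gave no call. Limma called 5.28% of all tested genes, so lists of this size would often give none. Nothing is read from these 0 calls. Of 9 tested genes of regulated secretion 0 were called by limma (1 higher and 0 lower at an unadjusted p under 0.05) and 0 of 14 by limma voom, with a median log2 difference of -0.04. Of 5 tested E proteins and Id factors, the partners and inhibitors of such factors, 0 were called by limma (0 higher and 2 lower at an unadjusted p under 0.05) and 0 of 6 by limma voom, with a median log2 difference of -0.57.

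The UPR regulators upstream of many secretory genes gave 4 of 5 tested genes higher and 0 lower (median log2 difference 0.69). Ddit3 (CHOP) rose from 2.80 ± 0.690 to 7.19 ± 1.14 RPKM, Atf4 from 115 ± 15.8 to 213 ± 11.5 RPKM, and Xbp1, which activates Bhlha15 in plasma cells, from 41.7 ± 5.63 to 67.5 ± 10.4 RPKM (SD, n = 4 each). The call of Xbp1 was lost without control replicate 1 (limma adjusted p 0.0514). Eif2ak3 (PERK) rose from 0.832 ± 0.0808 to 1.3 ± 0.205 RPKM, a call lost without control replicate 2 or 4 or Sel1l CKO replicate 3 or 4 (limma adjusted p 0.0574 to 0.0754). Eif2ak3 reached the filter only through the Sel1l CKO libraries, and Xbp1 is also counted in the plasma cell program.

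**Figure D5:**
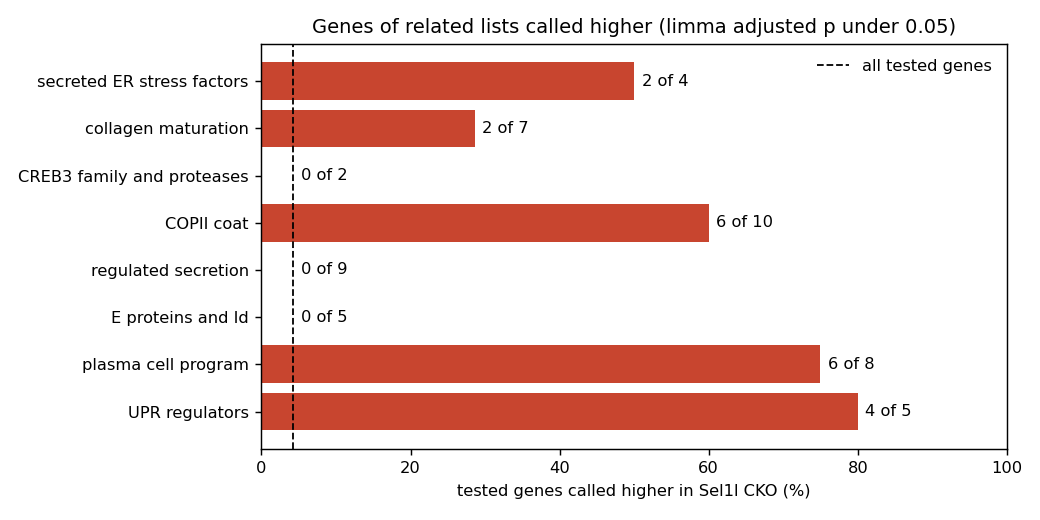
Percent of the tested genes of each list that limma called higher in Sel1l CKO, with the count beside each bar and a dashed line at the 4.27% of all tested genes. The UPR regulators (4 of 5), the plasma cell program (6 of 8) and the COPII coat (6 of 10) lie far to the right of the line. The lists were drawn up with earlier results of these data known. The counts include Derl3, Fkbp11 and Eif2ak3, which reached the filter only through the Sel1l CKO libraries. Xbp1 is counted in both the UPR regulators and the plasma cell program. Regulated secretion (9 tested), the E proteins and Id factors (5) and the CREB3 family (2) have 0 calls. Lists this small would often have none at the share of all tested genes.

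Because these genes are also products of other cells of the thymus, markers of those cells were summed in each library. In bulk RNA fewer cells of a type and less RNA per cell cannot be told apart. The 11 B cell markers summed to 9.43 to 11.6 RPKM per control library and 5.77 to 9.31 RPKM per Sel1l CKO library, with Cd79a at 7 to 32 reads and 0 to 10 reads. The 12 plasmacytoid dendritic cell markers in the table summed to 60.8 to 75.4 RPKM and 40.6 to 64.6 RPKM, with Klk1 at 0 to 1 and 0 to 2 reads, and Siglech was not analysed here. Within Sel1l CKO, replicate 2 had the lowest Mzb1 and also the lowest B cell and plasmacytoid dendritic cell sums, at 5.77 and 40.6 RPKM. It was likewise lowest for the macrophage and dendritic cell (3.71 RPKM), fibroblast (1.03 RPKM) and thymic epithelial (2.67 RPKM) markers. The sum of the DN3 markers was also lowest there, at 483 RPKM, while the endothelial sum was lowest in replicate 1, at 0.914 RPKM. The part of B cells and plasmacytoid dendritic cells in the spread of Mzb1 was not tested. The lineage antibodies that the study's methods give for excluding cells other than DN thymocytes include B220, carried by B cells and plasmacytoid dendritic cells, and CD11c.

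For Serpinh1, the 9 fibroblast markers in the table summed to 1.17 to 1.53 RPKM per control library and 1.03 to 1.40 RPKM per Sel1l CKO library. Col1a1 had 23 to 52 reads per control library and 8 to 20 per Sel1l CKO library, and Col1a2 had 0 to 1 and 0 to 4 reads, while Pdgfra was not analysed here. The 11 thymic epithelial markers summed to 4.36 to 6.49 and 2.67 to 3.10 RPKM, with Foxn1 at 0 to 4 reads in both genotypes. Most of these sums was Epcam and Cdh1, so they mainly follow these genes. Cdh1, below the filter and named after its values were seen, was at 0.898 ± 0.233 and 0.295 ± 0.0620 RPKM (SD, n = 4 each). Its log2 difference on exon length was -1.57 (SE 0.20, limma adjusted p = 0.00126). The only gene of the other-cell lists called by limma was Epcam, which fell from 4.02 ± 0.751 to 2.01 ± 0.178 RPKM (SD, n = 4 each, limma adjusted p = 0.00273). The 15 macrophage and dendritic cell markers in the table summed to 6.00 to 9.64 and 3.71 to 6.84 RPKM, and the 3 endothelial markers to 1.06 to 1.24 and 0.914 to 1.33 RPKM. Over all these lists 0 of 11 tested genes were called higher by limma and 0 of 32 by limma voom. At an unadjusted p under 0.05 there were 0 higher with either tool, and 5 of 11 lower by limma and 12 of 32 lower by limma voom. By limma 1356 of all 6512 tested genes passed that threshold, in either direction. At an adjusted p under 0.05, 2 were called lower on exon length and 3 by limma voom. The part of these cells in the values of Serpinh1 was not tested.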

How the data were processed

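RNA-seq of DN3 thymocytes was analysed from 4 control and 4 Sel1l CKO libraries, grouped by the genotype in the labels. The authors aligned reads with STAR 2.5.2b to GRCm38, counted them with HTSeq 2.7 and deposited RPKM per gene and library. Whether counting used the strand is not given in the sources used here. With GENCODE M21 gene spans 76.8% of genes gave whole reads in all libraries (tolerance 0.05 reads), against 4.32% with exon lengths, so the RPKM length includes introns. Reads were recovered for 15795 genes (99.6%), 3804 of them, Serpinh1 and Mzb1 included, with the length solved from the values.

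Genes with a mean of at least 1 RPKM were tested with limma 3.58.1 (R 4.3.3) on log2(RPKM + 0.1), modelling genotype alone and a trend of variance with level, with Benjamini-Hochberg adjustment (adjusted p under 0.05, two-sided). The 6 members were not tested, since they were chosen on this contrast. The members and lists were chosen with earlier results of these data known. Named besides the members were Sel1l, at most 4 called genes per list with the largest change, defining markers, the 3 nearest profiles per member and overlapping genes. Genes named outside this rule are said to be so, or are named because leaving out a library ended their call. The fit was tested on simulated data. Alternatives were pseudocounts of 1 and 0.01, no filter or a mean of at least 5 RPKM, median-of-ratios scaling, no trend, array weights, a replicate block, exon length, limma voom on genes with a mean of at least 10 recovered reads, and each library left out. Promoters on chromosome 18 were not searched. A list of proteins with a KDEL-type C-terminus was not run, since no protein sequences were used here. The labels do not say that each library came from a separate mouse, so p-values measure the spread between these libraries.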

Additional observations from a re-analysis of the deposited data

Results flagged for a closer look

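The summed fibroblast markers of Sel1l CKO replicate 4 stood away from those of the other Sel1l CKO libraries, at 1.40 RPKM against 1.03 to 1.08 RPKM. Nearly all of this sum was Pdgfrb, named here after its values were seen, at 0.999 to 1.37 RPKM in the Sel1l CKO libraries, and the other listed markers were at or near 0. The level lay within the control range of 1.17 to 1.53 RPKM. Serpinh1 was at 12.7 RPKM in this library and at 12.2 RPKM in Sel1l CKO replicate 3, whose markers did not stand apart. Among the 46 groups of 4 libraries compared, chance alone would single out about 2.3.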

How the results depend on the processing

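All 6 secretory-cell genes were higher in Sel1l CKO in each of 22 alternatives. They were chosen for being higher in this contrast, so nothing is read from that count. The filters, the fit without the trend, the replicate block and the term for replicates 1 and 2 against 3 and 4 leave these estimates unchanged by construction. Leaving out a library gave log2 differences of 4.21 to 4.67 for Bhlha15, 1.89 to 2.13 for Creb3l2, 4.76 to 5.28 for Serpinh1, 0.64 to 1.16 for Mzb1, 1.78 to 1.89 for Manf and 0.64 to 0.68 for Mydgf. Beyond the spread between replicates, the log2 difference moved with a pseudocount of 1 to 2.5 for Bhlha15, 0.64 for Creb3l2, 3.09 for Serpinh1, 1.46 for Manf and 0.61 for Mydgf, and with 0.01 to 4.97 for Bhlha15 and 2.71 for Creb3l2. Recovered reads gave 4.94 for Bhlha15 and 2.80 for Creb3l2, and exon length 2.75 for Creb3l2. The sets of replicates were examined after seeing the data. Replicates 1 and 2 alone gave 3.86 for Bhlha15, 1.73 for Creb3l2 and 4.28 for Serpinh1, and replicates 3 and 4 alone 4.93, 2.30 and 5.66. Without Sel1l CKO replicates 3 and 4 the values were 3.93 for Bhlha15, 1.71 for Creb3l2 and 0.62 for Mydgf.

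Sel1l kept its log2 difference of -0.59 but not its call with no filter (limma adjusted p 0.0904), had -0.30 (0.199) with replicates 3 and 4 alone, and ran from -0.69 to -0.51 when a library was left out. Of the 6512 tested genes limma called 344 (278 higher, 66 lower). The calls were 218 (182 and 36) with a mean of at least 5 RPKM, 640 (458 and 182) with array weights, 525 (182 lower) with replicates 1 and 2 against 3 and 4 as a term, 585 (287 lower) with replicates 1 and 2 alone, and 1328 (703 and 625) without Sel1l CKO replicates 3 and 4. Voom called 163 lower and exon length 124, and leaving out a library gave 31 to 75 lower, with 31 to 40 without any 1 control library or Sel1l CKO replicate 1.

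Of the genes of the functional lists, 19 were called higher, and 11 with a mean of at least 5 RPKM. The count called lower was 0 (4 at an unadjusted p under 0.05 by limma), and 1 with a mean of at least 5 RPKM, 2 with array weights, voom, exon length, the term or replicates 3 and 4 alone, 3 with replicates 1 and 2 alone or without Sel1l CKO replicates 3 and 4, and 0 to 1 when a library was left out (1 without control replicate 3). Of the markers of other cells 1 was called lower, against 2 with a pseudocount of 1, array weights, exon length, the term or replicates 1 and 2 alone, 3 with no filter or voom, 0 with a mean of at least 5 RPKM, 6 without Sel1l CKO replicates 3 and 4, and 1 to 2 when a library was left out (2 without Sel1l CKO replicate 2). The causes were not tested.

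With the replicate number as a block, 317 genes were called (236 higher, 81 lower), Sel1l at a log2 difference of -0.59 lost its call (limma adjusted p 0.0601), and 1 gene of the functional lists was called lower. Deviations of same-numbered libraries correlated at 0.16, 0.097, 0.44 and 0.0051, so the numbers were not taken to pair the libraries. Low read counts, 19 to 173 per library, limit the control levels of Bhlha15 and Serpinh1, and with them the size of the ratios. The KDEL-type list was not run.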
